A study of Homo sapiens with 2 samples.

Results

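The genes described here are 10 genes by which epithelial and mesenchymal cells are told apart. They are the cadherins CDH1 and CDH2, the surface protein gene EPCAM, the simple-epithelium keratins KRT8, KRT18, KRT19 and KRT20, vimentin (VIM), and the transcription factors ZEB1 and ZEB2. They were taken by name, and all 10 had a row among the 19989 genes of the expression table. RNA-seq of polyadenylated RNA was conducted on hNCI-H716 cells, a line established from a colorectal adenocarcinoma of the cecum that is used as a model of the human L-cell. The cells, which grow in suspension, were plated on Matrigel and then kept for 48 h in DMEM with fetal bovine serum, penicillin and streptomycin, at low (5.5 mM) or high (25 mM) glucose. Each concentration has 1 library, so the values have no replicate error and no p-value is given, and an effect of glucose cannot be told apart from other differences between the cultures. All of the cells belong to 1 tumor line, and no normal intestinal epithelium stands beside them in these data.

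Epithelial cells hold together through E-cadherin, the product of CDH1, whose outer domain binds the same protein on a neighboring cell and whose tail is linked to actin by catenins. They also carry a network of keratin filaments, each built from a type I and a type II keratin, and in the intestine these are KRT8 with KRT18, KRT19 and, in mature cells of the villus and upper crypt, KRT20. In an epithelial-mesenchymal transition, E-cadherin is lost, N-cadherin (CDH2) often takes its place, and vimentin filaments appear. Transcription factors of the ZEB, SNAI and TWIST families bind E-box sequences in the promoters of epithelial genes.

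Levels are given as deposited CPM, in which a gene's estimated counts are scaled to a common library size. The steps between low CPM values gave library totals of 21757846 estimated counts (low glucose) and 19456558 (high glucose). The limit that a count of 0 allows, 3 counts of the total, was 0.138 CPM at low and 0.154 CPM at high glucose. All intervals below are 95% intervals for counting error only, of the Wilson type for a CPM and exact binomial for a ratio. Since RNA was taken from whole cultures, a lower level in each cell and fewer cells with the transcript cannot be told apart.

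VIM, ZEB1, KRT8 and KRT18 were abundant in both libraries, EPCAM and KRT19 were between 0.989 and 3.51 CPM, and CDH1, CDH2 and KRT20 were at or under 3 estimated counts in both. The line therefore combined keratins of simple epithelium with vimentin and ZEB1, and had next to no transcript of CDH1 or CDH2. Checked against 5 defining markers of epithelium (EPCAM, CDH1, KRT8, KRT18 and KRT19), the line labelled as an adenocarcinoma had KRT8 and KRT18 above 10 CPM, low EPCAM and KRT19, and no CDH1 beyond 3 counts.

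**Figure D1:**
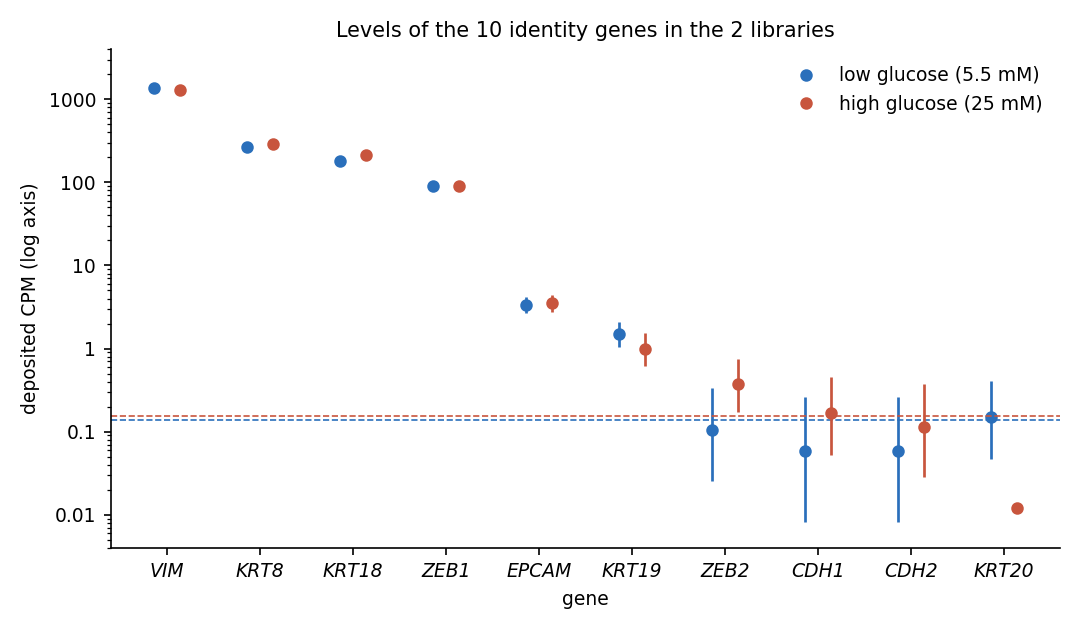
Deposited CPM of the 10 genes (log axis) in the low glucose (blue) and high glucose (red) libraries, in order of mean CPM. Points are single libraries, bars are 95% Wilson intervals for counting error (none is drawn for KRT20 in high glucose, at 0 counts), and dashed lines mark the CPM that a count of 0 allows, 0.138 in low and 0.154 in high glucose; VIM, KRT8, KRT18 and ZEB1 lie far above the rest, and the points of CDH1, CDH2 and KRT20 lie near or under the lines.

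VIM (ENSG00000026025.15; GRCh38 chromosome 10, 17228259 to 17237593, plus strand) encodes the intermediate filament protein of mesenchymal cells. It was at 1363 CPM in low glucose (1348 to 1379) and 1298 CPM in high glucose (1282 to 1314), which placed it 57th and 55th of all genes in the table. The level was thus among the highest of the table in both libraries, with intervals that did not overlap. The antisense gene VIM-AS1, which shares 641 bases of exon with VIM in GENCODE v29, had no row.

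ZEB1 (ENSG00000148516.21; chromosome 10, 31318495 to 31529814, plus strand), a zinc finger repressor of epithelial genes, was at 90.5 CPM in low glucose (86.6 to 94.6) and 91.6 CPM in high glucose (87.5 to 96.0). These levels lay at percentiles 87.6 and 87.6 of the table. Its paralog ZEB2 (ENSG00000169554.19; chromosome 2, 144364364 to 144524583, minus strand), which binds similar sequences, had 2 estimated counts in low glucose, at 0.104 CPM (0.0252 to 0.335), and 7 in high glucose, at 0.372 CPM (0.174 to 0.743). ZEB1 was thus well expressed and ZEB2 close to the limit of a count of 0. Per kb of exon and with the prior taken off, ZEB1 was 738 times ZEB2 in high glucose (357 to 1838) and 2851 times in low glucose, where the 2 counts of ZEB2 leave an interval of 788 to 23561. With the longest transcript of each gene as length these ratios were 389 and 1505.

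ZEB1-AS1, transcribed from the opposite strand at the start of ZEB1, was at 12.6 CPM in low and 9.27 CPM in high glucose, with a log2 ratio of high over low of -0.44 (-0.72 to -0.17). It shares 366 bases of exon with ZEB1. The library kit does not mark strand, so reads in that stretch cannot be assigned to either gene with certainty.

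KRT8 (ENSG00000170421.12; chromosome 12, 52897187 to 52949954, minus strand), the type II keratin of simple epithelia, was at 269.6 CPM in low glucose (263 to 277) and 291 CPM in high glucose (284 to 299). KRT18 (ENSG00000111057.10; chromosome 12, 52948871 to 52952901, plus strand), its type I partner, was at 182 CPM in low glucose (176 to 187) and 213 CPM in high glucose (206 to 219). The percentiles of the pair in the table ran from 94.7 to 97.1, and for each keratin the intervals of the libraries did not overlap. The genes are neighbors that lie in opposite directions and share 525 bases of exon in GENCODE v29, where reads without strand cannot be told apart.

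The other keratins of the intestine were low. KRT19 (ENSG00000171345.13; chromosome 17, 41523617 to 41528308, minus strand), a small type I keratin found in most simple epithelia, had 32.0 estimated counts in low glucose, at 1.48 CPM (1.04 to 2.08), and 19.0 in high glucose, at 0.989 CPM (0.625 to 1.53). KRT20 (ENSG00000171431.3; chromosome 17, 40875941 to 40885227, minus strand), the type I keratin of differentiated intestinal epithelium, had 3 estimated counts in low glucose, at 0.150 CPM (0.0469 to 0.405), and 0 in high glucose, where it is listed at the prior of 0.0121 CPM and the count of 0 allows up to 0.154 CPM. KRT20 thus did not exceed 3 counts in either library, and no fold is given for it.

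EPCAM (ENSG00000119888.10; chromosome 2, 47345158 to 47387601, plus strand) encodes an adhesion protein on the surface of most epithelial cells and is a usual handle for sorting them. It was at 3.37 CPM in low glucose (2.67 to 4.22) and 3.51 CPM in high glucose (2.76 to 4.43), from 73.0 and 68.0 estimated counts. Its percentiles in the table were 43.7 and 44.5, so that the transcript was present and low in both libraries, with overlapping intervals.

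CDH1 (ENSG00000039068.18; chromosome 16, 68737225 to 68835548, plus strand) had 1 estimated count in low glucose, at 0.0581 CPM (0.00811 to 0.260), and 3 in high glucose, at 0.166 CPM (0.0524 to 0.453). CDH2 (ENSG00000170558.8; chromosome 18, 27950966 to 28177446, minus strand), the cadherin of neural and mesenchymal cells, had 1 estimated count in low glucose, at 0.0581 CPM (0.00811 to 0.260), and 2 in high glucose, at 0.115 CPM (0.0282 to 0.375). Neither cadherin exceeded 3 counts, the intervals of the pair overlapped in both libraries, and no fold between the libraries is given for them. A CDH1 that is low beside a high CDH2, as a full switch of cadherins would give, was not seen at this depth, since both were low.

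Levels of different genes were compared per length, as CPM per kb of the union of a gene's exons in GENCODE v29. On this scale VIM came first, at 264 CPM per kb in low and 252 in high glucose. KRT18 followed at 56.4 and 66.0, KRT8 at 39.2 and 42.3, ZEB1 at 10.5 and 10.6, EPCAM at 1.34 and 1.39, and KRT19 at 0.635 and 0.423. The counting intervals of neighbors in this order did not overlap down to KRT19 and the gene after it, in both libraries. Among the last places (KRT20, CDH2, CDH1 and ZEB2) each gene's interval overlapped that of its neighbor, so neighbors there did not differ beyond counting error. The order of KRT18 and KRT8 depends on the length used. With the longest transcript of each gene the ratio of KRT18 to KRT8 was 0.923 at low and 1.00 at high glucose, against 1.44 (1.38 to 1.5) and 1.56 (1.5 to 1.62) with the union.

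Per kb, VIM exceeded KRT8 by a factor of 6.75 at low (6.56 to 6.94) and 5.94 at high glucose (5.78 to 6.12). Against KRT18 the factor was 4.68 (4.53 to 4.84) and 3.81 (3.69 to 3.94). With the longest transcripts these factors lay between 4.78 and 5.88, so vimentin transcript exceeded that of each keratin with either length. VIM was 198 times EPCAM per kb in low glucose (158 to 253) and 181 times in high glucose (143 to 234). These ratios were 263 and 240.1 with the longest transcripts and 328 and 299.9 with the principal transcripts.

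The promoters of 6 of the 10 genes (VIM, ZEB1, ZEB2, KRT8, KRT20 and CDH2) were found in the RefSeq-derived table used here (GRCh38.p14), and CDH1, EPCAM, KRT18 and KRT19 were not. The 250 bases before a start site of VIM, ZEB1 and KRT20 are shown, since these genes mark the highest filament gene, the abundant repressor and the keratin at 3 and 0 counts. Each is written 5′ to 3′ on the strand of the gene. They lie at chr10:17227991-17228240 (VIM, plus strand), chr10:31318167-31318416 (ZEB1, plus strand, the first of 7 start sites listed) and chr17:40885243-40885492 (KRT20, minus strand). Capitals mark the E-box CACCTG or, on the other strand, CAGGTG, the letters that ZEB factors are known to bind.
VIM: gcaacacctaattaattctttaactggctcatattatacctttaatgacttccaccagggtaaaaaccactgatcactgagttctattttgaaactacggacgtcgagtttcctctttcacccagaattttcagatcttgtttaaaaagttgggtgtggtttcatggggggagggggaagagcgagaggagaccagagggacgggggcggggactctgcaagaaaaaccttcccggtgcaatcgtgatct
ZEB1: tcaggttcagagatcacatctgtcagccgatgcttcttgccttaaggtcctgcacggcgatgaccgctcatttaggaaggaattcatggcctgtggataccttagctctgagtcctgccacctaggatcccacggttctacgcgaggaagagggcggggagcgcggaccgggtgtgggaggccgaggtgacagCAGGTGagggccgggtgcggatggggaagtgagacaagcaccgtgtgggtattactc
KRT20: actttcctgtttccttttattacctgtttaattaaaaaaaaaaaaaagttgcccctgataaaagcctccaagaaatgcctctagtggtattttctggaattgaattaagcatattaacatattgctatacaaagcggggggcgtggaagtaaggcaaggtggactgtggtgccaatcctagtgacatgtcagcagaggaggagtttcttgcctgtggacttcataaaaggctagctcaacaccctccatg

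In these windows, the E-box letters occurred in ZEB1 itself, 57 bases before the start, and not in VIM or KRT20. Of 35116 windows of the same length in the table, 17.5% held the letters on either strand. The windows of KRT8, ZEB2 and CDH2 held 0, and among the 7 windows of ZEB1 another one held 2. These letters are a description of the sequence and were not tied to binding in this line.

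The keratin family was then examined as a whole, to see whether other keratins stood in place of KRT19 and KRT20. Of 51 further keratin genes listed by symbol in GENCODE v29, 10 had a row and 3 reached 1 CPM in both libraries. KRT4, a type II keratin known from stratified epithelium of the mouth and esophagus, was at 76.5 CPM in low and 101 CPM in high glucose. KRT10 was at 20.9 and 17.7 CPM and KRT40 at 14.0 and 14.3 CPM. On the per kb scale, KRT18 made up 77.0% of all type I keratin in low and 81.3% in high glucose, and KRT8 made up 62.7% and 58.0% of type II keratin, with nearly all of the rest from KRT4 (37.0% and 41.6%). With the longest transcript as length, a choice made after seeing the data, KRT8 made up 75.8% and 72.0% and KRT4 23.9% and 27.7%. KRT8 also has 50 named processed copies in GENCODE v29, of which 3 had a row, with a summed level of 1.31% of that of KRT8 in low and 1.41% in high glucose. For KRT18, 1 of 66 copies had a row, at 0.0573% and 0.0299% of its level. RSEM divides reads among such copies by estimate.

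**Figure D2:**
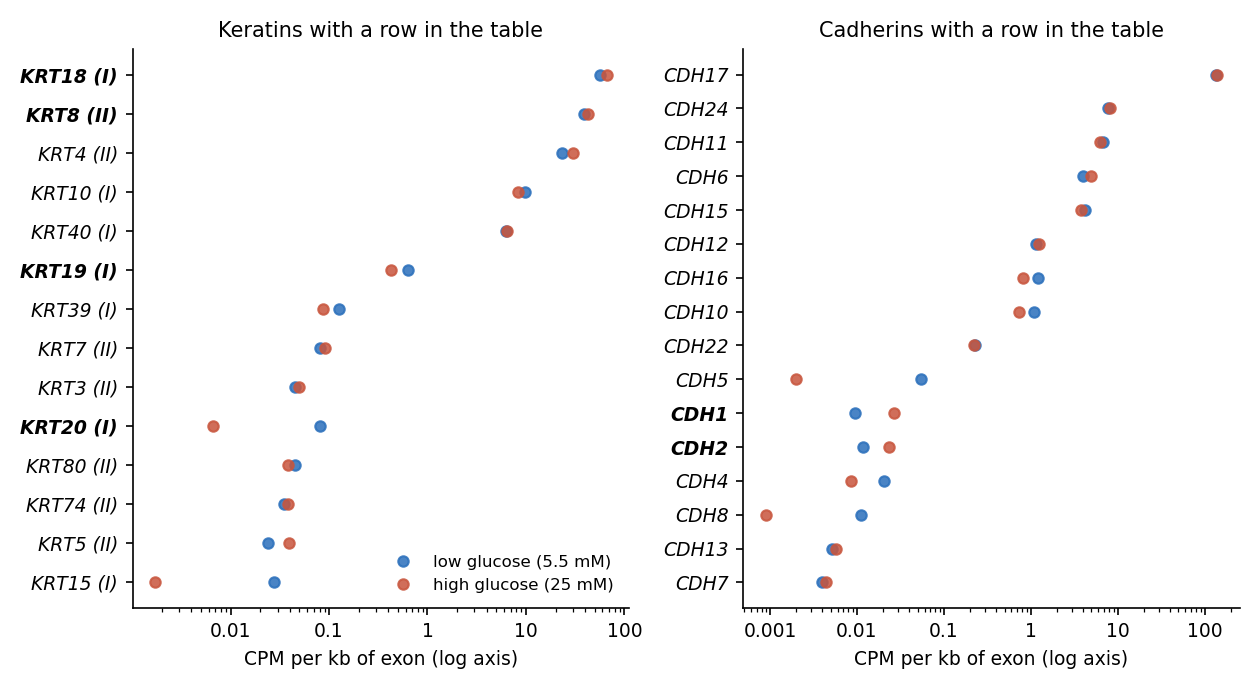
CPM per kb of exon (log axis) of every keratin (left, with type I or II) and every cadherin named CDH (right) with a row, in low glucose (blue) and high glucose (red); members of the set are in bold. KRT18 and KRT8 lead the keratins, followed by KRT4, while CDH17 leads the cadherins and CDH1 and CDH2 lie near the bottom; a gene with 0 counts, such as KRT20 in high glucose, is drawn at the prior of 0.0121 CPM divided by its length.

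The cadherin family was not empty. Of 21 further genes named CDH, 14 had a row and 9 reached 1 CPM in both libraries. CDH17, the liver-intestine cadherin, which binds without catenins, was at 522 CPM in low and 545 CPM in high glucose, and made up 83.4% and 84.1% of the cadherin level per kb. CDH11, a cadherin of mesenchymal cells, followed in CPM at 91.4 and 84.7, and CDH6, a cadherin of the kidney and nervous system, was at 49.4 and 60.9 CPM. CDH1 and CDH2 together made up 0.0132% of the cadherin level per kb in low and 0.0302% in high glucose.

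The next comparison addressed whether any of the 10 genes differed between the glucose concentrations. It compares 1 library with another and cannot be extended to the concentrations. Of the 10 genes, 6 had a mean of at least 1 CPM, and 1 of these, KRT19, was past 1.2-fold in either direction, against 17.7% of the 13052 genes of the table with such a mean. At 2-fold the count was 0, against 0.82% of those genes. The counting interval of the log2 ratio left out 0 for 3 of the 6, KRT8, KRT18 and VIM, against 31.6% of those genes. Counts among 6 genes are too small to be set apart from these shares.

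KRT18 had the largest log2 ratio in size among VIM, ZEB1, KRT8 and KRT18, with a log2 ratio of high over low glucose of 0.23 (0.16 to 0.29), a factor of 1.17. Of the 500 genes nearest to it in mean CPM, 95.6% had a smaller change. Its partner KRT8 had a log2 ratio of 0.11 (0.06 to 0.16), and 65.6% of its 500 nearest genes had a smaller change. Both keratins were thus higher in the high glucose library by more than counting error, and the difference of KRT8 was within the SD of 0.13 among its 500 nearest genes.

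VIM had a log2 ratio of -0.07 (-0.10 to -0.05), which leaves out 0, and 39.4% of its 500 nearest genes had a smaller change. ZEB1 had a log2 ratio of 0.02 (-0.07 to 0.11), and no difference was detectable at this depth beyond that interval. Both differences were smaller than those of the keratin pair.

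For the low genes, depth set what could be seen. EPCAM had a log2 ratio of 0.06 with an interval of -0.44 to 0.56. KRT19, the gene past 1.2-fold, had a log2 ratio of -0.58, with an interval of -1.49 to 0.27 that includes 0, and 75.2% of its 500 nearest genes had a smaller change. ZEB2 had a log2 ratio of 1.84 from 2 and 7 estimated counts, with an interval of -0.42 to 5.27, and of 0.31 with a pseudocount of 1 CPM. A difference was not detectable at this depth for any of these 3 genes. Of all 12793 genes with 1 CPM in both libraries, 6.19% were at least 1.2-fold higher in high glucose and 10.1% lower. In the families of the set, 1 of the 3 other keratins at 1 CPM or more in both libraries was past 1.2-fold (KRT4, higher, log2 ratio 0.40, with a median of 0.03 over the 3). Of the 9 other cadherins, 1 was higher (CDH6, 0.30) and 2 were lower (CDH10, -0.56, and CDH16, -0.56), with a median of -0.03.

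**Figure D3:**
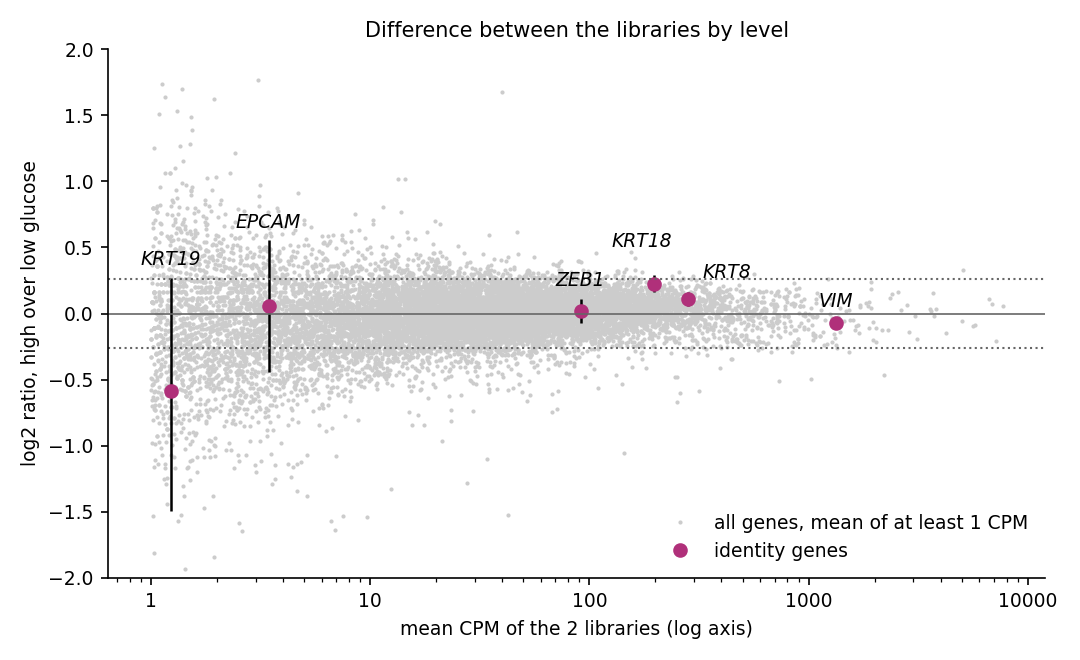
Log2 ratio of high over low glucose against mean CPM (log axis) for every gene whose mean reaches 1 CPM (grey, 13 genes outside the axis) and for the 6 genes of the set among them (colored, bars are 95% counting intervals), with dotted lines at 1.2-fold. Points of VIM, ZEB1, KRT8 and KRT18 lie within the lines, and KRT19, at -0.58, lies outside with an interval that crosses 0.

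Partners of E-cadherin and of the other junctions were examined next. Of 22 genes of adherens and tight junctions, 21 had a row and 16 reached 1 CPM in both libraries. The listed catenin genes were abundant while CDH1 was not. CTNNB1 was at 232 CPM in low and 259.8 CPM in high glucose, CTNNA1 at 205 and 214, and CTNND1 at 86.2 and 101. Of the 16 genes, 2 were at least 1.2-fold higher in high glucose and 1 lower, where the shares over all genes were 6.19% and 10.1%. Chosen after their values were seen, here and for the lists that follow, the genes past 1.2-fold are named. OCLN (log2 ratio 0.42) and MARVELD2 (0.42), which encode tight junction proteins, were higher, and CLDN15 (-0.35) was lower. The median log2 ratio of the 16 was 0.07, against -0.00037 over all genes with 1 CPM in both libraries. CLDN12, CLDN4 and CLDN7, named here after their values were seen, were the listed claudins above 10 CPM, at 59.3, 54.8 and 23.3 CPM in low glucose, whereas CLDN1 and CLDN3 lay under 1 CPM.

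Desmosomes are the junctions to which keratin filaments attach. Of 15 desmosome and hemidesmosome genes, 12 had a row and 7 reached 1 CPM in both libraries. PERP was at 269.7 and 292 CPM, DSP, whose product desmoplakin anchors keratin, at 218 and 229 CPM, and DSG2, a desmosomal cadherin, at 193 and 204 CPM. The listed plakophilins, which link desmoplakin to those cadherins and were named after their values were seen, were near the limit of a count of 0. PKP1 was at 0.150 and 0.218 CPM, PKP2 at 0.150 and 0.0635 CPM, and PKP3 at 0.0581 and 0.0635 CPM. Of the 7 genes, 1 was at least 1.2-fold higher (DSC2, log2 ratio 0.27) and 1 lower in high glucose (JUP, -0.29). The shares over all genes with 1 CPM in both libraries were 6.19% and 10.1%. The median log2 ratio of the 7 was 0.08. The counting interval of DSC2, -0.41 to 0.97, includes 0, and that of JUP, -0.39 to -0.19, does not. A further list of 7 genes held linkers and other listed partners of keratin filaments, together with KRTCAP2 and KRTCAP3. These last genes were listed for their keratinocyte-associated names and are not known to bind keratin. In this list, 5 reached 1 CPM in both libraries. The highest in CPM were PLEC, a linker of filaments to the cell membrane, at 224 and 219 CPM, KRTCAP2, a subunit of the oligosaccharyltransferase of the endoplasmic reticulum, at 80.5 and 67.4 CPM, and TCHP, which encodes a keratin-binding protein, at 15.5 and 17.8 CPM. None of these 5 was past 1.2-fold, against 6.19% higher and 10.1% lower over all genes, and their median was -0.03.

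Of 14 regulators of the epithelial state, 9 had a row and 6 reached 1 CPM in both libraries. KLF5, a factor of intestinal crypts, was at 222 and 238 CPM, the RNA-binding protein gene RBM47 at 109 and 113 CPM, ELF3 at 43.3 and 43.7 CPM, and KLF4 at 30.9 and 28.3 CPM. GRHL1 was at 4.33 and 3.51 CPM and EHF at 2.91 and 4.07 CPM. GRHL2 was at 0.0581 and 0.115 CPM, as was OVOL1. The splicing factor gene ESRP2 was at 0.334 and 0.269 CPM. ESRP1, OVOL2, GRHL3 and the microRNA host genes MIR200CHG and MIR205HG had no row under their symbols or the older symbols searched. Genes with very low totals over both libraries were removed before deposit, and here and elsewhere a gene with no row is one with no value in the table used here. Of the 6 genes at 1 CPM or more, 1 was at least 1.2-fold higher (EHF, log2 ratio 0.49) and 1 lower (GRHL1, -0.30). The shares over all genes with 1 CPM in both libraries were 6.19% and 10.1%. The median log2 ratio of the 6 was 0.03. Both counting intervals include 0 (-0.0082 to 0.99 for EHF and -0.78 to 0.16 for GRHL1).

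Of 10 surface and trafficking genes of epithelium, 5 reached 1 CPM in both libraries. CD24 was at 202 and 191 CPM, MAL2, which acts in transport to the apical membrane, at 60.6 and 61.7 CPM, and the protease inhibitor gene SPINT2 at 13.2 and 11.2 CPM. None of the 5 was past 1.2-fold, against 6.19% higher and 10.1% lower over all genes, with a median of -0.08.

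Among 14 other transcription factors of epithelial-mesenchymal transition, 8 had a row and 5 reached 1 CPM in both libraries. TCF3, which encodes E-box binding proteins of wide expression, was at 175 and 171 CPM, PRRX1 at 46.2 and 52.0 CPM and FOXC1 at 9.71 and 13.8 CPM. SNAI2 was at 3.32 and 2.38 CPM, TCF4 at 1.44 and 0.886, SNAI3 at 0.380 and 0.372, and SNAI1 at 0.150 and 0.423. TWIST1 and TWIST2 had no row. Of the 5 factors at 1 CPM, FOXC1 was at least 1.2-fold higher in high glucose, with a log2 ratio of 0.51 (0.24 to 0.77), and SNAI2 lower, at -0.48 with an interval of -1.05 to 0.07. Over all genes with 1 CPM in both libraries, 6.19% were higher and 10.1% lower by this fold. The median of the 5 factors was 0.17.

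Of 21 mesenchymal and matrix genes, 18 had a row and 13 reached 1 CPM in both libraries. ITGB1, an integrin subunit of wide expression, was at 811 and 798 CPM, TGFB1 at 108 and 107 CPM, and CDH11 at the levels given above. FN1, which encodes fibronectin and was named after its values were seen, was low, at 3.73 and 3.40 CPM, and ACTA2 and AXL had no row. Of the 13 genes, 1 was at least 1.2-fold higher (S100A4, log2 ratio 0.32) and 1 lower. The shares over all genes with 1 CPM in both libraries were 6.19% and 10.1%. The median of the 13 was -0.02. Beside vimentin, other intermediate filament genes were expressed, with 8 of 13 at 1 CPM or more in both libraries. The lamin genes LMNA, at 384 and 387 CPM, and LMNB2, at 240.1 and 238 CPM, encode filaments of the nucleus, and PRPH, a filament gene of neurons, was at 269 and 252 CPM. Of the 8, 2 were at least 1.2-fold higher (NES, log2 ratio 0.34, and SYNC, 0.49) and 0 lower, against 6.19% and 10.1% of all genes. The median of the 8 was -0.00064. The counting interval of SYNC includes 0.

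**Figure D4:**
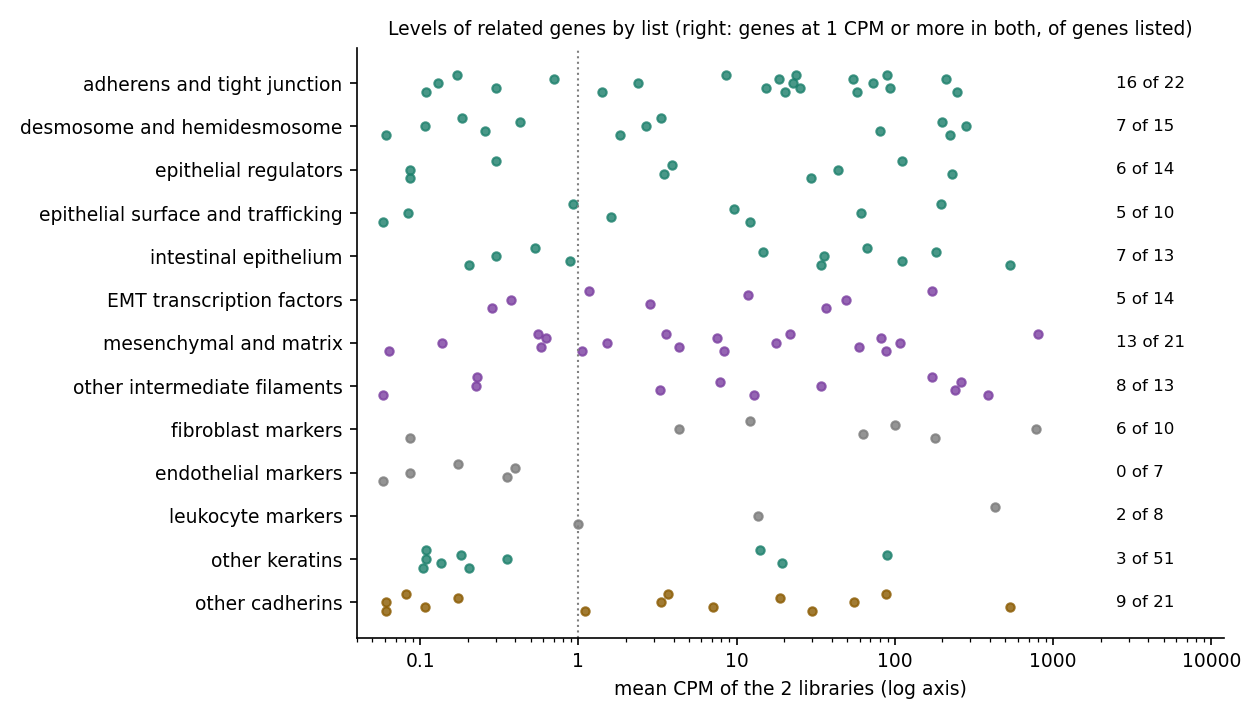
Mean CPM of the 2 libraries (log axis) for each gene with a row in 13 of the gene lists, 1 point per gene; the dotted line marks 1 CPM and the text at the right counts genes at 1 CPM or more in both libraries among those listed. Epithelial (green) and mesenchymal (purple) lists both spread from under 1 to over 100 CPM, and no endothelial marker reaches 1 CPM.

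Markers of other cell types were measured beside the level of VIM. Of 10 fibroblast markers, 7 had a row and 6 reached 1 CPM in both libraries, with a summed level of 1161 CPM in low and 1112 CPM in high glucose. COL3A1 was at 814 and 743 CPM, LUM at 177 and 181, FAP at 97.0 and 102, POSTN at 58.6 and 67.6, PDGFRA at 11.2 and 13.3, and COL1A2 at 3.73 and 4.95. COL1A1, the usual partner of COL1A2 in collagen, was at 0.0581 and 0.115 CPM, and DCN, PDGFRB and THY1 had no row. Of the 6 genes, 1 was at least 1.2-fold higher (COL1A2, log2 ratio 0.41, with an interval of -0.04 to 0.85 that includes 0) and 0 lower. The shares over all genes with 1 CPM in both libraries were 6.19% and 10.1%. The median of the 6 was 0.14. Of 7 endothelial markers, 5 had a row (PECAM1, VWF, CDH5, CLDN5 and TEK), 0 reached 1 CPM, and the sum was 1.21 CPM in low and 0.934 CPM in high glucose. Of 8 leukocyte markers, 3 had a row. LYZ was at 439.9 and 413 CPM, CD68 at 14.4 and 12.9 and CD14 at 0.748 and 1.25, for a sum of 455 and 428 CPM. The median log2 ratio over LYZ and CD68 was -0.12, with 0 past 1.2-fold, against the same 6.19% and 10.1%. PTPRC, the marker of all leukocytes, had no row. The part of such markers in the level of VIM was not tested.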

How the data were processed

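Polyadenylated RNA of hNCI-H716 cells was sequenced as paired-end reads, with 1 library at each glucose concentration. Per the labels and the study's methods, the authors trimmed reads with Trim Galore 0.5.0, aligned them to GRCh38 with STAR 2.6.0 and GENCODE v28, estimated counts with RSEM 1.3.1, removed genes with very low totals, and computed CPM and log2 CPM in edgeR with a prior. The deposited table holds CPM and log2 CPM for each library, and 4 columns of the authors' means, log2 difference and ratio, which were not used. The deposited CPM were used as given. The study's methods also name TMM normalization and word the prior in CPM. With a prior of 0.25 counts (0.0121 CPM) taken off, each deposited CPM column summed to 1e+06, as without TMM scaling. Estimated counts were recovered from the steps between low values; 72.1% and 72.7% of those under 10 CPM were whole within 0.03 counts, so no count model was run. Gene lengths and coordinates came from GENCODE v29 on the same assembly. Python 3.11.15, numpy 2.4.6, pandas 2.3.3 and scipy 1.17.1 were used, and the calculations were tested on simulated data.

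Groups follow the labelled treatment. The 10 genes and the 15 related lists were chosen with earlier results of these data known. Named were the 10 genes, the 3 highest genes of each list, all with a row for the transcription factor, epithelial regulator and marker lists, and list genes past 2-fold at 1 CPM or more in mean (0 were). Alternatives were TMM and median-of-ratios scaling, a pseudocount of 1 CPM, removal of the prior, other filters and other gene lengths. Some genes that this rule names are not reported here.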

Additional observations from a re-analysis of the deposited data

How the results depend on the processing

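All 68 values of member levels and log2 ratios recomputed under TMM factors (0.998 and 1.002), median-of-ratios factors, a pseudocount of 1 CPM or without the prior stayed within the counting interval, and none changed sign. With the pseudocount the log2 ratio moved from -0.58 to -0.32 for KRT19 and from 1.84 to 0.31 for ZEB2. The number of the 10 genes past 1.2-fold was 1, against 5 with no filter on low values and 0 when the mean had to reach 10 CPM; past 2-fold it was 0, against 3 with no filter, all of these from genes of under 10 counts. Over all genes, 2315 (17.7%) were past 1.2-fold, against 7591 (38%) with no filter and 746 (7.98%) at 10 CPM, and 107 (0.82%) were past 2-fold, against 2933 (14.7%) with no filter, 9 (0.0963%) at 10 CPM and 31 (0.238%) with the pseudocount. At 5 CPM instead of 1 CPM in both libraries, 4 of 7 desmosome genes and 3 of 5 genes of the list with PLEC and KRTCAP2 were left. With the longest or the principal transcript as length (the latter chosen after seeing the data), KRT8 took place 2 and KRT18 place 3 in low glucose, as with the principal transcript in high glucose; ZEB2 took place 7, CDH1 place 8 and CDH2 place 9 in high glucose, all within overlapping intervals. Depth limits the genes with under 10 counts most. No paired analysis was possible because each concentration has 1 library.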

Other observations

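The intestinal and endocrine genes place the 10 identity genes in context. Of 13 genes of intestinal epithelium, 11 had a row and 7 reached 1 CPM in both libraries. CDH17 led, at 522 CPM in low and 545 CPM in high glucose, followed by TFF3, the trefoil peptide of goblet cells, at 207 and 156 CPM, and HNF4A, a transcription factor of gut and liver, at 109 and 113 CPM. Of the 7 genes, 2 were at least 1.2-fold higher in high glucose and 1 lower, where the shares over all genes with 1 CPM in both libraries were 6.19% and 10.1%, and the median log2 ratio was 0.06. VIL1 (log2 ratio 0.62) and CDX2 (0.33), named after their values were seen, were the higher genes, and TFF3 was the lower gene, with a log2 ratio of -0.41 (-0.48 to -0.34). FABP1 and CDX1 had no row.

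Of 7 neuroendocrine genes, 6 reached 1 CPM in both libraries. GCG, which encodes proglucagon, was at 1951 and 1811 CPM, CHGA, which encodes a granule protein, at 703 and 654 CPM, and NCAM1, a neural adhesion gene, at 295 and 275 CPM. None was past 1.2-fold, against 6.19% higher and 10.1% lower over all genes, and the median log2 ratio was -0.10. VIM, at 1363 and 1298 CPM, was thus expressed beside endocrine transcripts in the same libraries; whether in the same cells cannot be told from bulk RNA.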
